A study of Rattus norvegicus with 15 samples.

Results

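The 9 genes described here are the Nrf2 regulators Nfe2l2 and Keap1 and 7 redox targets of Nrf2 that are not glutathione S-transferases, namely Nqo1, Ephx1, Gclc, Gclm, Txnrd1, Srxn1 and Hmox1. They were taken by name, as every probe set whose array annotation gives only that gene (Ephx1 is Entrez gene 25315), which gave 14 of the 31099 probe sets of the array, for 9 of the 14217 genes that its annotation names singly. Srxn1 had 3 probe sets, Gclc, Txnrd1 and Keap1 had 2 each, and the other 5 genes had 1. After a filter on low levels 13 were tested, and 1 probe set of Srxn1 (1381067_at) lay below it.

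Liver RNA of 15 male Sprague-Dawley rats was hybridised to 1-channel Affymetrix rat expression arrays, 1 array per animal as the titles present them. The rats were 4 weeks old at the start, had 5 days of adaptation and then ate their diet for 14 days: genistein was given to 5 rats and daidzein to 5 others, each at 2 g/kg of feed, and 5 control rats had no isoflavone. All 3 diets shared the same base, with casein as the protein and palm oil as the fat. Both compounds are isoflavones of soy, which differ by a hydroxyl group that genistein has and daidzein lacks. Levels are on a log2 scale inferred from the scores that were deposited, so 1 unit is about a 2-fold difference. Level 0 is the mean over the arrays of the level of 1 step of the rebuilt scanner intensity. Changes are the first diet minus the second, SE and 95% confidence intervals come from a limma model over all 15 arrays, and a probe set was called at a Benjamini-Hochberg adjusted p under 0.05 over the 18625 probe sets tested.

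Nrf2, the product of Nfe2l2, is a transcription factor that in unstressed cells is held by Keap1 and handed to the proteasome. Electrophiles and oxidants modify cysteines of Keap1, Nrf2 then accumulates in the nucleus, pairs with small Maf proteins and binds the antioxidant response element (ARE) of genes for detoxification and for the glutathione and thioredoxin systems. In liver this programme equips hepatocytes against reactive metabolites of food and drugs. Because Nrf2 is regulated mostly as a protein, the mRNA levels of Nfe2l2 and Keap1 need not follow its activity.

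With daidzein 1 of the 9 genes was called, and that call was kept in only 4 of 21 alternative fits. Ephx1, the microsomal epoxide hydrolase that opens reactive epoxides to diols, was 1.73-fold higher with daidzein than with the control diet (adjusted p = 0.0453). Nqo1, the quinone reductase that is among the most widely used markers of Nrf2 activity, had a larger change of 3.63-fold that was not called (adjusted p = 0.228), and its levels varied more between rats. Of the 13 tested probe sets 1 was called higher with daidzein and 0 lower, where 0.0161% of all tested probe sets were called higher and 0% lower. With genistein against control limma called 0 of 13, where 0.322% of all tested probe sets were called in either direction. No member separated the genistein arrays from the control arrays without overlap, as 2.57% of all tested probe sets did. Genistein against daidzein also gave 0 of 13, where the share over all was 0.113%.

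The ARE core was looked for as TGACNNNGC on both strands of the 250 bases before each annotated start, and the AP-1 site TGACTCA, which such elements often contain, was looked for in the same way. The starts come from RefSeq on the rat build GRCr8, whose table holds 10 starts of 8 of the 9 genes, with 2 starts each for Ephx1 and Txnrd1. Hmox1 was not matched there. Of these 10 windows, 3 held the ARE core, 1 each of Ephx1, Gclm and Txnrd1, where 10.1% of the 33469 windows of all genes held it. The sequences below are shown because these are the ARE matches among genes whose levels are compared here. They run 5′ to 3′ along the gene's strand, and the capitals mark the ARE core, which in all of them reads on the opposite strand.
Ephx1, chr13:95263126-95263214, minus strand, the more downstream of its 2 starts: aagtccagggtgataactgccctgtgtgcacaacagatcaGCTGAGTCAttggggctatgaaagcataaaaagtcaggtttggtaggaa
Gclm, chr2:213031923-213032011, plus strand: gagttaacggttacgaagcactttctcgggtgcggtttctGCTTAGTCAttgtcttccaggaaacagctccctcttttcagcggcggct
Txnrd1, chr7:22755934-22756022, minus strand, the more downstream of its 2 starts: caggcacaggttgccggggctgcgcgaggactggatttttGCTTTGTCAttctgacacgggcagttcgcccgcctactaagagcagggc

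The match of Ephx1 began 57 bases before the start, that of Txnrd1 78 and that of Gclm 172. In Ephx1 the ARE core overlaps an AP-1 site by all 7 of its bases, and another AP-1 site lay in the same window, beginning 209 bases before the start. AP-1 sites were found in 4.05% of all windows and in 2 of the 10 windows of these genes, the other being that of Srxn1. The Srxn1 window is chr3:161064710-161064796 on the plus strand, with the AP-1 site in capitals: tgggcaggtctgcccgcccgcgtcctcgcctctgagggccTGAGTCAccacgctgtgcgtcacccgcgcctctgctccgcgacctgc. The letters say nothing of binding in these livers, and elements outside these windows were not searched. Which of the starts of Ephx1 or Txnrd1 the RNA came from cannot be told from the probe sets.

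Ephx1 showed the clearest separation. Its level in daidzein arrays 1 to 5 was 12.29, 11.85, 12.06, 12.19 and 12.19, against 11.27, 11.45, 11.08, 11.37 and 11.46 in control arrays 1 to 5. The lowest daidzein array lay above the highest control array, which was true in that direction for 0.94% of all tested probe sets. The means were 12.12 ± 0.17 with daidzein and 11.33 ± 0.16 with control (SD, n = 5 each), a log2 change of 0.79 (SE 0.12, 95% confidence interval 0.54 to 1.04), and by p-value it ranked 3 among the 18625 probe sets. The call sat near the threshold and was lost without quantile normalization (0.84, adjusted p = 0.19), without the filter (adjusted p = 0.156) and with only the 10 arrays compared (adjusted p = 0.0731). Of 15 limma fits that each left out 1 array it was kept in 2, those without daidzein 2 (adjusted p = 0.0262) and without genistein 4 (adjusted p = 0.00968). In the other fits of that kind the adjusted p lay between 0.0547 without genistein 1 and 0.21 without daidzein 4, while the log2 change stayed between 0.73 and 0.85.

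In genistein arrays 1 to 5 the Ephx1 level was 11.79, 11.74, 11.93, 11.37 and 11.86. These were above every control array except for genistein 4, which lay within the controls. The mean was 11.74 ± 0.22 with genistein (SD, n = 5), a log2 change against control of 0.41 (SE 0.12, 95% confidence interval 0.16 to 0.66, adjusted p = 0.169). Without genistein 4 the change was 0.50 and was called (adjusted p = 0.0353). Genistein minus daidzein was -0.38 (95% confidence interval -0.63 to -0.13, adjusted p = 0.255), so the diets ranked daidzein, genistein, control, with only the ends of that order separated by the test.

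Nqo1 reduces quinones by 2 electrons and so keeps them from redox cycling. Its level in daidzein arrays 1 to 5 was 10.20, 10.03, 8.71, 9.51 and 8.73, against 6.04, 7.42, 8.11, 7.91 and 8.40 in control arrays 1 to 5. Here too every daidzein array lay above every control array, but the spread within diets was wide, and its SD of 0.70 was at the 96.6th percentile of all tested probe sets. The log2 change with daidzein was 1.86 (SE 0.40, 95% confidence interval 1.00 to 2.72, adjusted p = 0.228), which ranked 29 by p-value. Control 1 had the lowest level of all 15 arrays, and this array also had the highest median of deposited values (0.127, against 0.00111 to 0.0787 in the others) and the highest scale. Without control 1 the daidzein change was 1.48 (adjusted p = 0.348). What part the signal distribution of that array has in the Nqo1 value was not tested.

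With genistein Nqo1 had levels of 8.01, 8.81, 8.19, 8.53 and 8.23 in arrays 1 to 5, a narrower band that overlapped the upper controls. The log2 change against control was 0.78 (SE 0.40, 95% confidence interval -0.08 to 1.64, adjusted p = 0.51), and without control 1 it was 0.40 (adjusted p = 0.762). Genistein minus daidzein was -1.08 (95% confidence interval -1.94 to -0.22, adjusted p = 0.393), with 5 of 5 genistein arrays below the daidzein mean. Nqo1 and Ephx1 were thus alike in the order of the diet means, daidzein over genistein over control, which the Txnrd1 probe set 1386958_at also had.

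**Figure D1:**
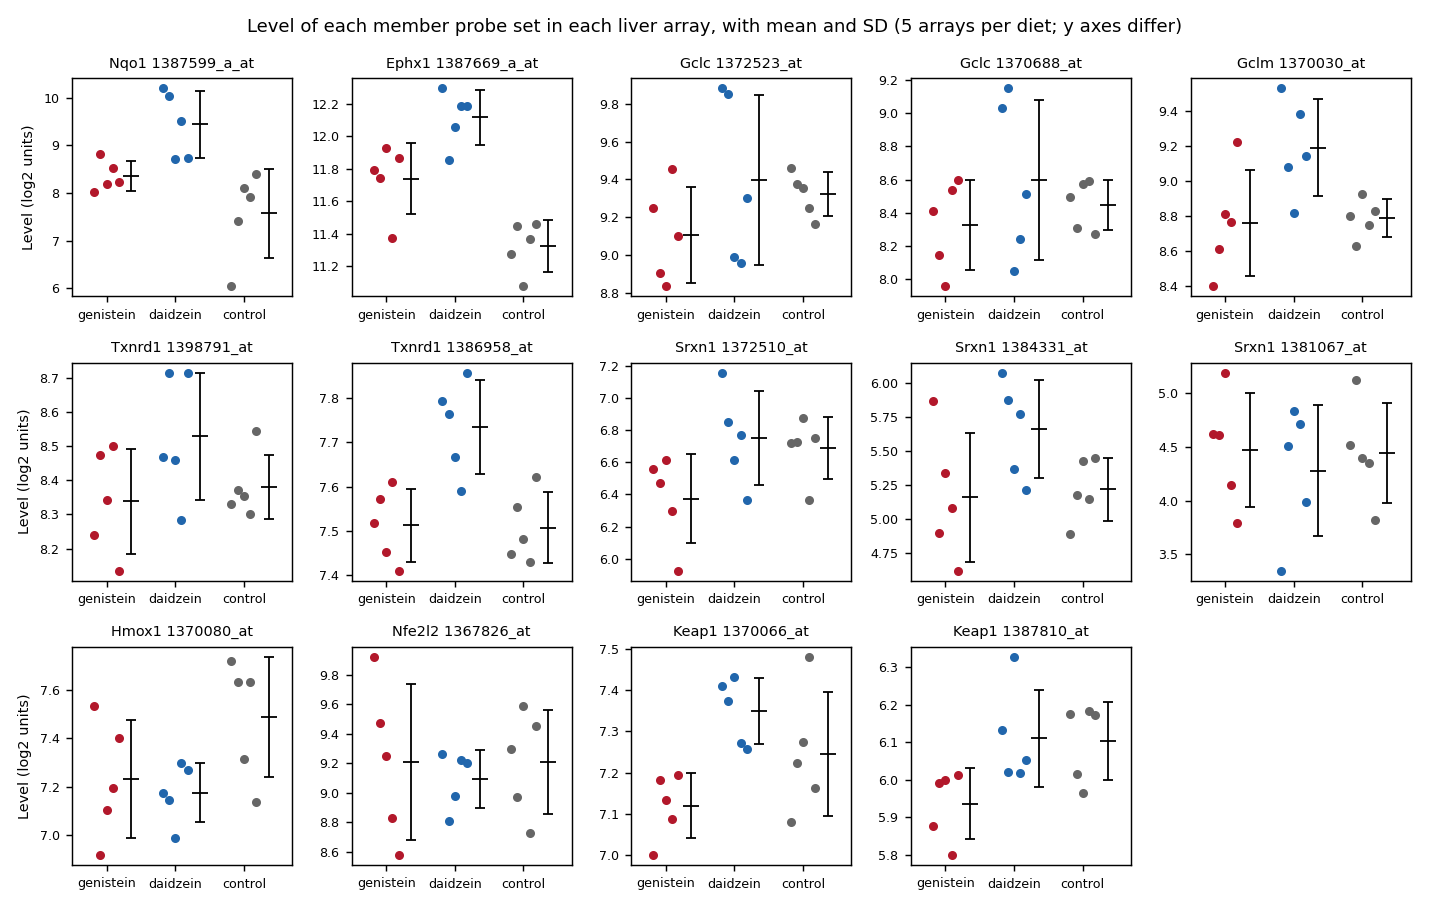
Level in log2 units (y axes, which differ) of each of the 14 probe sets in the 5 genistein, 5 daidzein and 5 control arrays, with points for arrays and bars for the mean and SD. The daidzein arrays of Ephx1 (11.85 to 12.29) and Nqo1 (8.71 to 10.20) lie above all their control arrays, while most other panels overlap.

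Glutamate-cysteine ligase makes the first and limiting bond of glutathione, with Gclc as its catalytic and Gclm as its modifier subunit. Gclm had levels of 9.53, 9.08, 8.82, 9.38 and 9.14 in daidzein arrays 1 to 5, against 8.80, 8.63, 8.93, 8.75 and 8.83 in control arrays 1 to 5. All but daidzein 3 lay above the highest control. The log2 change was 0.40 (SE 0.15, 95% confidence interval 0.08 to 0.72, adjusted p = 0.501) and was not called. With genistein the change was -0.03 against control (95% confidence interval -0.34 to 0.29, adjusted p = 0.977), and genistein minus daidzein was -0.43 (95% confidence interval -0.75 to -0.11, adjusted p = 0.342).

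For Gclc the changes were not called either, and the subunits were not tested against each other. The probe set 1372523_at had a log2 change of 0.08 with daidzein (95% confidence interval -0.31 to 0.47, adjusted p = 0.935) and -0.21 with genistein (95% confidence interval -0.60 to 0.18, adjusted p = 0.744). The daidzein rats were spread widely: arrays 1 and 2 had 9.88 and 9.85, above every control (9.16 to 9.46). Arrays 3 and 4 had 8.99 and 8.96, below every control, and array 5 had 9.30, within the controls. The genistein arrays ran from 8.83 to 9.46, with arrays 2, 3 and 5 also below every control. The SD was 0.45 with daidzein, 0.25 with genistein and 0.12 with control (n = 5 each), and the differences in spread were not tested. The probe set 1370688_at repeated that order, with 9.03 and 9.15 in daidzein 1 and 2, and 8.05 and 8.24 in daidzein 3 and 4. Daidzein 5, with 8.51, again lay within the controls (8.27 to 8.59). The genistein arrays ran from 7.96 to 8.60, with arrays 2 and 3 below every control. Over the 15 arrays the pair of probe sets had a Pearson r of 0.904 (permutation p = 3e-05, Benjamini-Hochberg adjusted p = 0.00018 over 6 such pairs) and a Spearman rho of 0.743 (permutation p = 0.00229). Without the 2 arrays farthest from the median r was 0.762, and within diets it was 0.899. The wide spread of the daidzein arrays thus appeared on both Gclc probe sets, and levels below every control were not particular to daidzein.

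Thioredoxin reductase 1, encoded by Txnrd1, keeps cytosolic thioredoxin reduced with NADPH. Its probe set 1386958_at had levels of 7.79, 7.76, 7.67, 7.59 and 7.86 in daidzein arrays 1 to 5, against 7.45, 7.55, 7.48, 7.43 and 7.62 in control arrays 1 to 5. Only daidzein 4 lay within the controls. The change was small and even, 0.23 log2 units (SE 0.07, 95% confidence interval 0.07 to 0.38, adjusted p = 0.415), on a probe set whose within-diet SD of 0.09 was at the 4.3th percentile of those tested. The probe set 1398791_at gave 0.15 (95% confidence interval -0.06 to 0.36, adjusted p = 0.72). With genistein the values were 0.01 and -0.04 (adjusted p = 0.988 and 0.933), with intervals from -0.15 to 0.16 and from -0.25 to 0.17. The Txnrd1 probe sets followed each other over the arrays (Pearson r = 0.84, permutation p = 0.00013; Spearman rho = 0.8, permutation p = 0.00056; r = 0.701 without the 2 farthest arrays).

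Srxn1 encodes sulfiredoxin, which restores peroxiredoxins that peroxide has overoxidised. Its 2 tested probe sets had the same sign in each comparison, and neither was called. With daidzein 1384331_at had a log2 change of 0.44 (95% confidence interval -0.02 to 0.91, adjusted p = 0.623) and 1372510_at had 0.06 (95% confidence interval -0.27 to 0.40, adjusted p = 0.935). With genistein they had -0.06 (adjusted p = 0.963) and -0.32 (95% confidence interval -0.65 to 0.02, adjusted p = 0.484). Genistein minus daidzein was closer between them, at -0.50 (95% confidence interval -0.96 to -0.04, adjusted p = 0.492) and -0.38 (95% confidence interval -0.72 to -0.05, adjusted p = 0.456). For 1372510_at the genistein arrays ran from 5.92 to 6.61, the daidzein arrays from 6.37 to 7.16 and the control arrays from 6.37 to 6.88, so all 3 diets overlapped.

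These Srxn1 probe sets correlated over the 15 arrays (Pearson r = 0.742, permutation p = 0.00169; Spearman rho = 0.725, permutation p = 0.00305), although r was 0.473 without the 2 farthest arrays. The Srxn1 probe set below the filter, 1381067_at, followed neither (Pearson r = 0.0424 and -0.073, permutation p = 0.883 and 0.799; Spearman rho = 0.0929 and 0.0214). Its level was 3.79 to 5.19 with genistein, 3.35 to 4.84 with daidzein and 3.82 to 5.13 with control, around the filter level of 5.01 or under it. In a fit without the filter its changes were 0.03 with genistein and -0.16 with daidzein against control (adjusted p = 0.99 and 0.944), and 0.19 between the isoflavones (adjusted p = 0.952).

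Hmox1, haem oxygenase 1, breaks haem down to biliverdin, iron and carbon monoxide, and is made in liver by macrophages as well as by stressed hepatocytes. Among the tested probe sets of the 7 targets it was the only one whose mean was highest with the control diet. Its level was 7.18, 7.14, 6.99, 7.30 and 7.27 in daidzein arrays 1 to 5, against 7.72, 7.63, 7.32, 7.63 and 7.14 in control arrays 1 to 5. All 5 daidzein arrays lay below the control mean of 7.49, but control 5 lay among them. The log2 change was -0.31 (95% confidence interval -0.59 to -0.03, adjusted p = 0.569) with daidzein and -0.26 (95% confidence interval -0.54 to 0.02, adjusted p = 0.505) with genistein, whose arrays ran from 6.92 to 7.53. Genistein minus daidzein was 0.06 (95% confidence interval -0.23 to 0.34, adjusted p = 0.948).

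Macrophage markers also had lower means with daidzein. The mean level of 8 Kupffer cell and macrophage markers (Cd68, Cd163, Clec4f, Adgre1, Csf1r, Cd5l, C1qa and C1qb) ran from 7.73 to 8.20 in daidzein arrays and from 8.12 to 8.44 in control arrays, a difference of -0.25 (two-sided exact permutation p = 0.0238, Benjamini-Hochberg adjusted p = 0.143 over 18 comparisons of 6 marker lists). Of the 8 markers 1 had a change above 0, and none was called. For genistein against control the difference was -0.06 (exact p = 0.595, adjusted p = 0.968). The part of these markers in the Hmox1 values was not tested, and in whole liver fewer cells of a type and less RNA per cell cannot be told apart.

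Nfe2l2 itself was not called in any comparison. Its level ran from 8.58 to 9.92 with genistein, from 8.81 to 9.27 with daidzein and from 8.73 to 9.59 with control. The log2 change was 0.00 with genistein (95% confidence interval -0.48 to 0.48, adjusted p = 1) and -0.11 with daidzein (95% confidence interval -0.60 to 0.37, adjusted p = 0.921), and genistein minus daidzein was 0.12 (95% confidence interval -0.37 to 0.60, adjusted p = 0.933). The genistein interval still allows changes from 0.72-fold to 1.40-fold. The genistein rats covered the widest range, from 9.92 in genistein 1, the highest of all 15 arrays, to 8.58 in genistein 5, the lowest.

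Keap1 separated the isoflavone diets from each other by little, but on both of its probe sets. On 1370066_at the genistein arrays 1 to 5 had 7.00, 7.18, 7.13, 7.09 and 7.19, against 7.41, 7.37, 7.43, 7.27 and 7.26 in daidzein arrays 1 to 5. On 1387810_at they had 5.88, 5.99, 6.00, 5.80 and 6.01, against 6.13, 6.02, 6.33, 6.02 and 6.05. On both, every genistein array lay below every daidzein array, although on 1387810_at the nearest arrays had 6.01 with genistein and 6.02 with daidzein. Of the 13 tested probe sets 2 separated in that direction and 0 in the other, where 1.06% of all tested probe sets separated in that direction and 0.966% in the other. Genistein minus daidzein was -0.23 on 1370066_at (95% confidence interval -0.40 to -0.06, adjusted p = 0.342) and -0.17 on 1387810_at (95% confidence interval -0.35 to -0.00, adjusted p = 0.527), and neither was called.

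Against the controls Keap1 had log2 changes of -0.13 and -0.17 with genistein (adjusted p = 0.628 and 0.48) and of 0.10 and 0.01 with daidzein (adjusted p = 0.755 and 0.987). The control arrays overlapped both isoflavone groups. They ran from 7.08 to 7.48 on 1370066_at, with genistein 1 below them, and from 5.97 to 6.18 on 1387810_at, with genistein 1 and 4 below and daidzein 3 above them. The Keap1 probe sets agreed moderately over the arrays (Pearson r = 0.594, permutation p = 0.0187, adjusted p = 0.028; Spearman rho = 0.525, permutation p = 0.0459). That agreement was weaker without the 2 farthest arrays (r = 0.454) and within diets (r = 0.349).

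**Figure D2:**
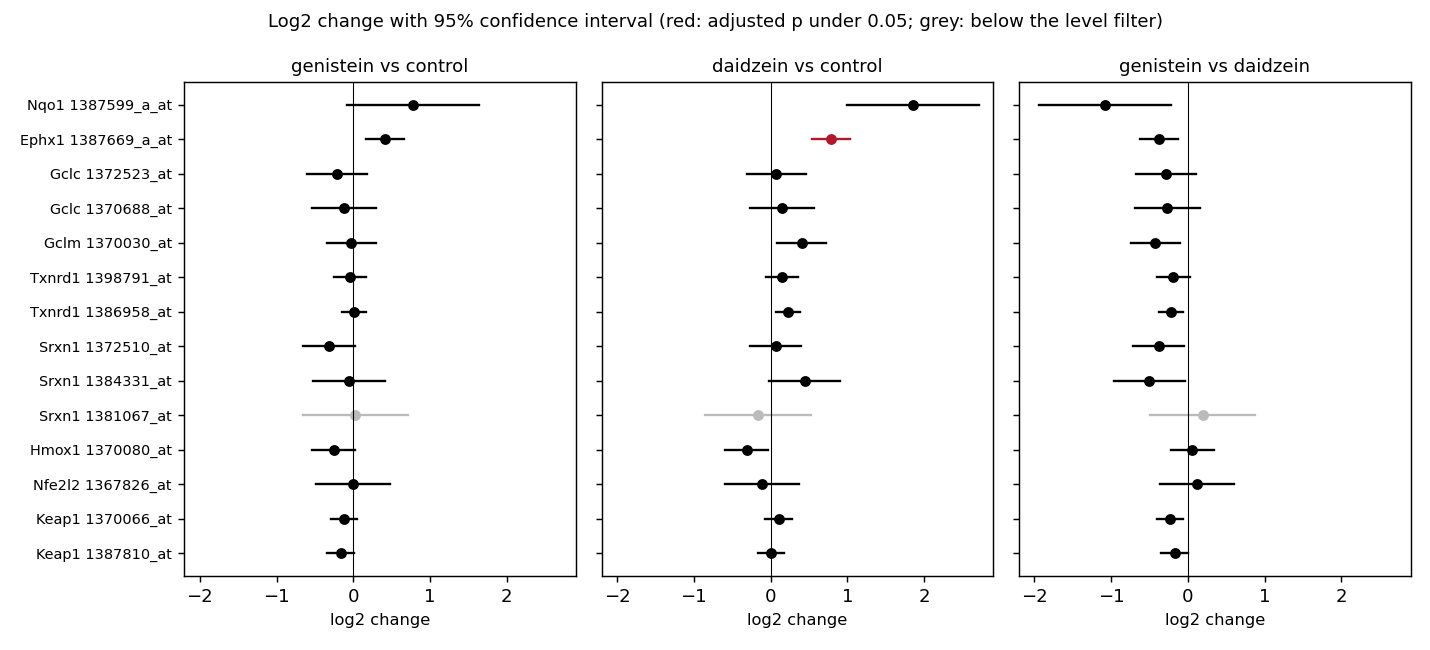
Log2 change (x axis) with its 95% confidence interval for each probe set (rows) in the 3 comparisons, with red for the call and grey for the probe set below the filter. Ephx1 with daidzein (0.79) is the only call, and in the comparison of genistein with daidzein 11 of the 13 tested probe sets lie left of 0.

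Over the 13 tested probe sets, both comparisons with daidzein had 11 on 1 side of 0. Genistein minus daidzein was above 0 for 2 of the 13 tested probe sets, those of Hmox1 and Nfe2l2, with a median of -0.27, where 50.2% of all tested probe sets were above 0 and their median was 0.00. An unadjusted p under 0.05 was reached by 8 of the 13, where 9.37% of all tested probe sets reached it, although none passed after adjustment. For daidzein against control 11 of 13 were above 0 with a median of 0.15, and 5 had an unadjusted p under 0.05, where the shares over all were 50.1% and 8.25%. For genistein against control 4 of 13 were above 0 with a median of -0.06, and 1, that of Ephx1, had an unadjusted p under 0.05, where the shares over all were 50% and 11%. Probe sets of 1 gene share their RNA, the comparisons share arrays, and these genes were chosen with results of these data known, so the counts are a description. Both isoflavones were fed at the same dose and time, and this was 1 pair of compounds compared over all 18625 probe sets. The intervals of genistein minus daidzein excluded 0 for 8 of the 13 probe sets before any adjustment, and for none of the 13 do the adjusted values show a difference or show that the compounds act alike.

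Member levels also differed from array to array within a diet. Of the 13 tested probe sets, daidzein 1 had the highest level of all 15 arrays in 6, and it lay above the control mean in 12, with a median deviation of 0.47 log2 units. The same median was 0.29 in daidzein 2 but 0.08, 0.03 and 0.01 in daidzein 3, 4 and 5. In these last 3 rats Nqo1 and Ephx1 were still above every control. At the other end, genistein 5 had the lowest level of all arrays in 5 probe sets and was above the control mean in 4. The medians of the other genistein arrays lay between -0.11 and -0.02. These counts include several probe sets of 1 gene, and how often each array was extreme over all tested probe sets is not given here. With 1 array per rat, a difference in response cannot be told apart from other differences between rats or arrays.

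**Figure D3:**
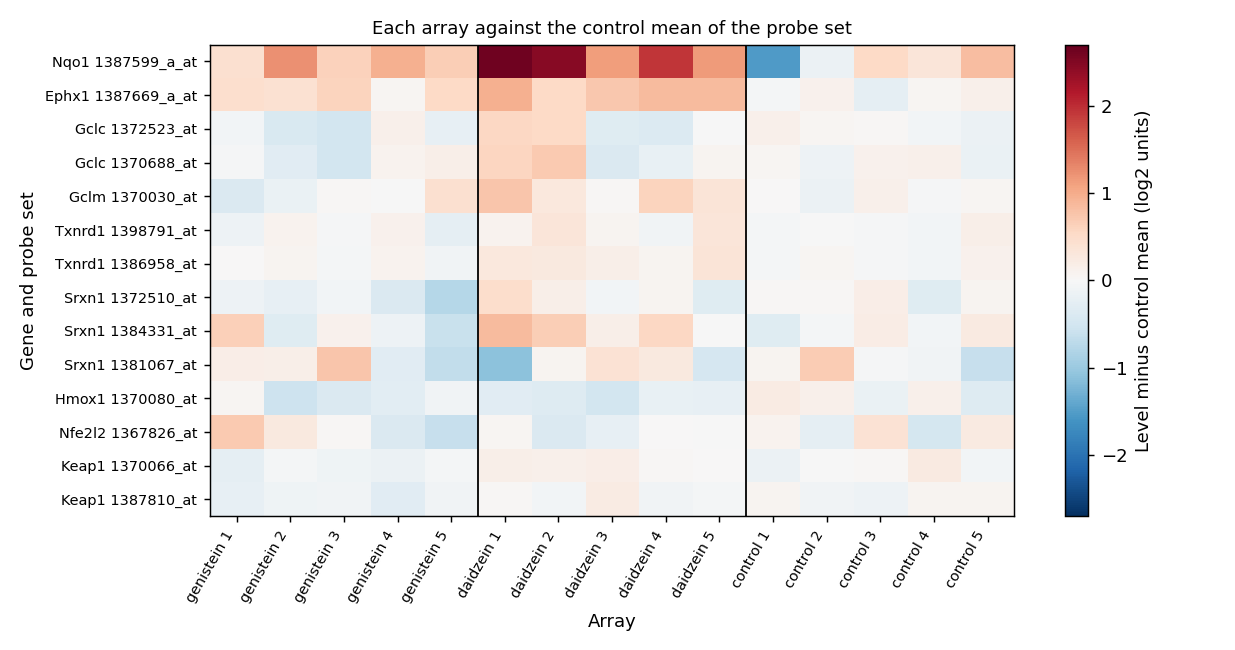
Level minus the control mean of the same probe set in log2 units (colour) for each of the 14 probe sets (rows) in each array (columns, genistein then daidzein then control). Nqo1, Ephx1, Gclm, Txnrd1 1386958_at and Keap1 1370066_at are above the control mean in all 5 daidzein arrays. In both Gclc probe sets daidzein 1 and 2 are also above it.

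Genes related to these 9 were taken from lists written from general knowledge, with 1 probe set standing for each gene. Among 20 tested Nrf2 targets that are neither members nor glutathione S-transferases, daidzein raised 1, Akr7a3, the aflatoxin aldehyde reductase. Its level was 10.97 ± 0.21 with daidzein and 8.84 ± 0.21 with control (SD, n = 5 each), a log2 change of 2.14 (SE 0.16, adjusted p = 2.43e-05). The median of the 20 was 0.10 with daidzein and -0.06 with genistein, where all 10745 genes had -0.00 in both comparisons, and 15 were above 0 with daidzein and 8 with genistein. Osgin1, an oxidative stress response gene, had 0.83 with daidzein (adjusted p = 0.493) and 0.73 with genistein (adjusted p = 0.399), and Blvrb, a biliverdin reductase, had 0.51 with daidzein (adjusted p = 0.578). Taldo1 of the pentose phosphate pathway (-0.22) and Ugdh, which makes UDP-glucuronate (0.25), were also not called with daidzein.

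With genistein 0 of these 20 were called by limma, and 3 had an unadjusted p under 0.05. Those were the canalicular export pump Abcc2 (0.49, adjusted p = 0.142), the prostaglandin reductase Ptgr1 (0.46, adjusted p = 0.268) and Osgin1. Aldehyde oxidase Aox1 had -0.44 (adjusted p = 0.484). Between the isoflavones Akr7a3 was lower with genistein, at 8.76 ± 0.34 against 10.97 ± 0.21 with daidzein (SD, n = 5 each, log2 change -2.21, adjusted p = 1.52e-05). Abcc2 went the other way without being called (0.41, adjusted p = 0.285), and Ugdh (-0.34), Trib3 (-0.31) and Me1 (-0.41) were not called either.

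Of the Nrf2 partners, repressors and degradation factors none of the 11 tested was called by limma in any comparison, with medians of -0.00 for genistein, -0.02 for daidzein and -0.02 between them, and 0, 1 and 1 had an unadjusted p under 0.05. Rbx1, the RING subunit of the Cul3 ubiquitin ligase that Keap1 serves, had -0.20 with daidzein (adjusted p = 0.482) and -0.11 with genistein (adjusted p = 0.641). Sqstm1, the p62 protein that can sequester Keap1, had 0.15 with daidzein (adjusted p = 0.724), -0.12 with genistein (adjusted p = 0.752) and -0.27 between them (adjusted p = 0.411). The coactivator Crebbp, the kinase Gsk3b, the small Maf Mafk, the Nrf2 relative Nfe2l1 and the ligase adaptor Btrc had changes between -0.17 and 0.17 in the comparisons where they ranked among the 4 of lowest p.

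In the glutathione system outside these genes, 0 of 23 were called in any comparison by limma, with 2, 2 and 6 at an unadjusted p under 0.05 for genistein, daidzein and genistein against daidzein. The medians of these 3 comparisons were 0.02, -0.03 and -0.04. Gpx1, the main peroxidase of glutathione in liver, had the lowest p of this list with genistein, at 0.19 against control (SE 0.06, adjusted p = 0.196) and 0.25 against daidzein (SE 0.06, adjusted p = 0.101). Cth, the cystathionine lyase that supplies cysteine, had 0.42 with genistein against control (adjusted p = 0.274) and 0.56 against daidzein (adjusted p = 0.148). With daidzein Glrx2, a glutaredoxin, had 0.22 (adjusted p = 0.463) and Slc3a2, the partner chain of the cystine carrier, had 0.29 (adjusted p = 0.564). Ggct (-0.32) and Mat1a (0.21) with genistein, Gpx8 (-0.27) and Ahcy (0.12) with daidzein, and Gpx8 (0.38) and Glrx2 (-0.19) between them completed those of lowest p.

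The thioredoxin system gave 0 calls among 19 genes by limma, with 3, 1 and 4 at an unadjusted p under 0.05 in the same order of comparisons and medians of -0.04, -0.05 and -0.03. With genistein Prdx5, a peroxiredoxin, had -0.33 (adjusted p = 0.265), Msra, a methionine sulfoxide reductase, -0.43 (adjusted p = 0.268), the sestrin Sesn2 -0.43 (adjusted p = 0.384) and Msrb1 -0.19. With daidzein the sestrin Sesn1 had -0.50 (adjusted p = 0.429), the reductase Txnrd3 -0.18, the thioredoxin inhibitor Txnip -0.15 and mitochondrial Prdx3 -0.14. Between the isoflavones Txnrd3 had 0.24, Msra -0.36, Sesn1 0.40 and Prdx3 0.20, with adjusted p between 0.419 and 0.48. No gene of this list thus accompanied the small Txnrd1 value with a call.

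Of 14 genes of haem and iron 0 were called by limma, with 1 at an unadjusted p under 0.05 in each comparison and medians of 0.01, 0.02 and 0.00. Slc40a1, the iron exporter ferroportin, had 0.65 with genistein (SE 0.16, adjusted p = 0.105) and 0.25 with daidzein (adjusted p = 0.709), and 0.40 between them (adjusted p = 0.429). Hamp, the hormone hepcidin that removes ferroportin, varied widely, at -1.38 with genistein against control (SE 1.04, adjusted p = 0.694) and -1.75 against daidzein (adjusted p = 0.668). Fech (-0.14 with genistein and -0.15 between the isoflavones), Urod (-0.20 with daidzein and 0.20 between them), Ppox (-0.18 with daidzein) and Blvrb (0.29 with genistein) were not called.

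Among 7 tested relatives of the members none was called by limma in any comparison, with 0, 0 and 1 at an unadjusted p under 0.05 and medians of 0.05, -0.05 and 0.10. The cytosolic epoxide hydrolase Ephx2 had 0.51 with daidzein (SE 0.27, adjusted p = 0.648) and 0.22 with genistein (adjusted p = 0.832), against the 0.79 and 0.41 of Ephx1. Its interval is too wide to say that the hydrolases differ in response. Txnrd2 had 0.05 with genistein and 0.10 between the isoflavones, Ephx4 had -0.26 with daidzein, and Nfe2l1 had 0.05 with genistein and -0.07 with daidzein.

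**Figure D4:**
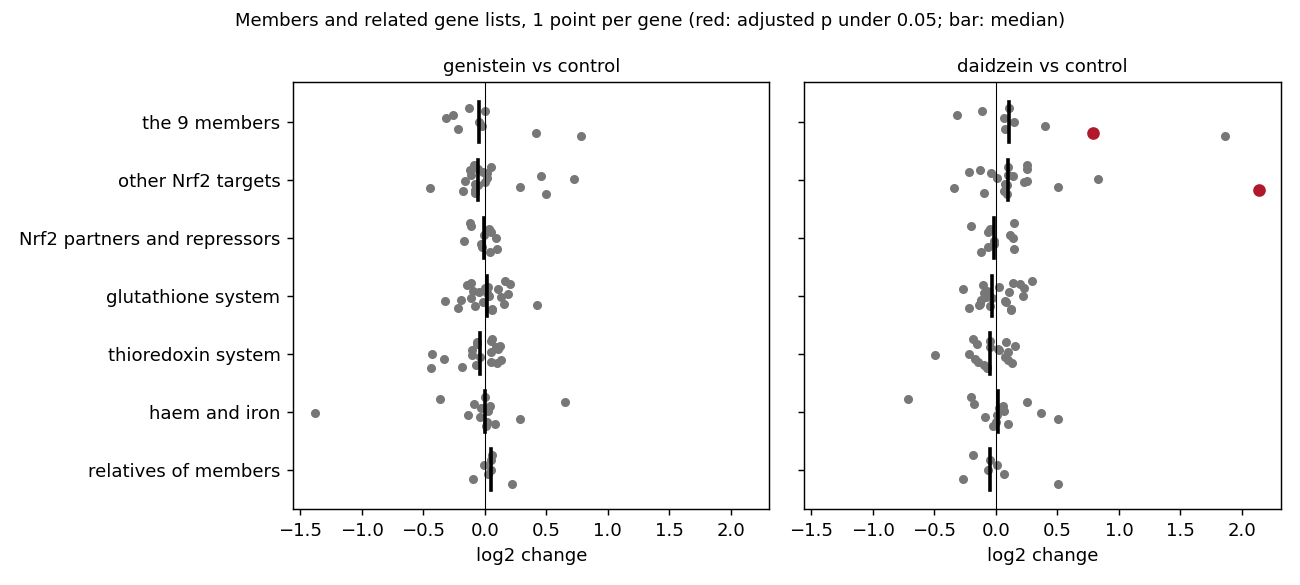
Log2 change against control (x axis) of the 9 members and of the related lists (rows), 1 point per gene, with genistein on the left and daidzein on the right, red for called genes and a bar at each median. With daidzein Ephx1 (0.79) and Akr7a3 (2.14) are the called genes, and the list medians lie between -0.06 and 0.10 in both panels.

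The genes whose pattern over the 15 arrays was most like that of Ephx1, among 10736 other genes, were Gsta3, a glutathione S-transferase (Pearson r = 0.961, Spearman rho = 0.971), Tmco1 (r = 0.903), Gemin8 (r = 0.850) and C8h11orf52 (r = 0.832). Within diets the r of Gsta3 was 0.796 and those of the other 3 lay between 0.525 and 0.640. Gsta3 was called with daidzein (log2 change 3.44, adjusted p = 0.00186) and not with genistein (1.72, adjusted p = 0.0745). The others had changes between 0.19 and 0.41 and were not called. Most like Nqo1 were Wnt9a (r = 0.858, rho = 0.664), Slc38a7 (r = 0.828), Ywhaq (r = 0.828) and Erc1 (r = 0.814), none of them called, with daidzein changes between 0.15 and 0.79. These genes were picked for their r, so no p is given.

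The liver identity of the samples was plain, with 8 tested hepatocyte markers, Alb and Ttr among them, at mean levels of 13.59 to 13.64 in genistein, 13.61 to 13.64 in daidzein and 13.57 to 13.64 in control arrays (exact p from 0.365 to 0.603). These markers lie from the 99.7th to the 100th percentile of level, where quantile normalization gives all arrays nearly the same values. This test can therefore say little about equal hepatocyte content. Of the bile duct genes Krt7, Krt19 and Cftr were below the filter, while Epcam (mean level 6.11) and Spp1 (5.56) were above it. The stellate cell list had lower levels in the daidzein arrays, with no overlap, but did not pass its test after adjustment. Its mean level over 8 genes was 7.05 to 7.20 in daidzein arrays, against 7.26 to 7.36 in control arrays, a difference of -0.20. The genistein arrays, at 7.27 to 7.39, lay above the daidzein arrays by 0.20. Both differences had a two-sided exact permutation p of 0.00794, the smallest that 252 arrangements can give, and a Benjamini-Hochberg adjusted p of 0.0715. With daidzein 1 of the 8 genes was above 0, none was called, and Dcn (-0.76), Reln (-0.34) and Col3a1 (-0.30) had the lowest p. The part of these markers in the Ephx1 and Nqo1 values was not tested. For endothelial, bile duct and red cell markers the exact p lay between 0.183 and 0.968, and limma called no marker of the 6 lists in any comparison.

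**Figure D5:**
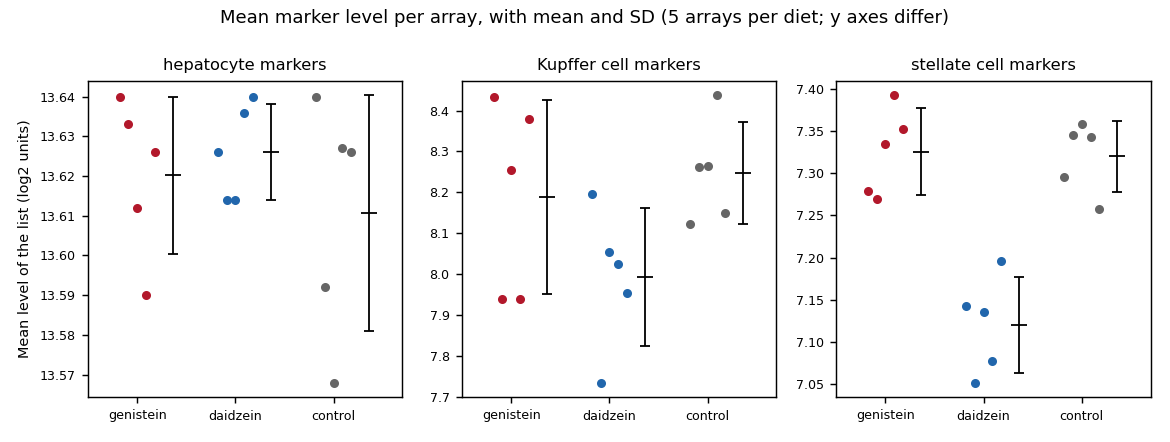
Mean level in log2 units (y axes, which differ) of the hepatocyte, Kupffer cell and stellate cell markers in the 5 genistein, 5 daidzein and 5 control arrays, with mean and SD. The daidzein arrays of the stellate list (7.05 to 7.20) lie below all others. The hepatocyte list spans 13.57 to 13.64, at the top of the arrays, where quantile normalization holds levels nearly equal.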

How the data were processed

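All values come from 1 table that the authors deposited, with 31099 probe sets and 15 arrays. They are a score, namely a log signal standardized within each array. The background correction, summarisation and scaling by the authors were not given in the sources used here. Repeated values gave the scale, from the spacing of those that occur at least 60 times: when exponentiated with a scale for each array, 435 of 435 of their gaps were whole steps within 0.001. The scale was 2.54 to 2.79 log2 units per deposited unit, and scores were multiplied by the mean, 2.60, so the size of each log2 change rests on this inference. The rebuilt levels were quantile normalized with limma 3.58.1 in R 4.3.3, as in earlier work on these data. Without the 57 control probe sets, 31042 remained, and the 18625 whose mean level reached the 40th percentile were tested. Of the 260 missing values 0 were in tested probe sets.

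A model with 3 diets was fitted with lmFit and eBayes (12 residual and 2.58 prior degrees of freedom) and adjusted by Benjamini-Hochberg per comparison. Symbols come from the array annotation: 20826 probe sets have 1 symbol, 436 several and 9780 none. Of the probe sets with 1 symbol, 20758 were found in the RefSeq rat gene table. In the gene lists the probe set of highest mean level stands for its gene. Marker lists and probe set agreement were tested by permutation (252 arrangements, or 100000 resamples). On simulated data the fit recovered 85, 81 and 84 of 100 probe sets moved by 1 log2 unit, and 99 of 100 moved by 2 in each comparison, with 14, 12 and 14 false calls. The 3 values are those of genistein and of daidzein, each against control, and of genistein against daidzein. Each simulation moved 100 probe sets by 1 and 100 by 2 among 18625, while the real comparisons called 60, 3 and 21. The Benjamini-Hochberg threshold is looser where more probe sets change, so these recoveries do not apply to the members here.

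The members, the 12 gene lists and the tests were chosen with earlier results of these data known. All members are reported; from each list called genes and up to 4 others of lowest p per comparison are named, and the 4 genes most like Nqo1 and Ephx1. Arrays are numbered as in their titles; the descriptions of several arrays carry other numbers, which were used neither as a block nor to pair arrays. Equal title numbers did not pair the arrays: 1 of 15 such pairs of residuals correlated above 0.1 (r from -0.163 to 0.109). Alternatives were no quantile normalization, no filter, 16 added to the rebuilt intensities, only the 10 arrays compared, a replicate block, eBayes with trend and robust, and leaving out each array. The number of arrays limits the precision.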

Additional observations from a re-analysis of the deposited data

Results flagged for a closer look

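On the Keap1 probe set 1370066_at all 5 genistein arrays lay below the control mean and all 5 daidzein arrays above it, with a difference of genistein minus daidzein of -0.23 log2 units. The direct comparison gave an unadjusted limma p of 0.012 and an adjusted p of 0.342, so it was not called. On the other Keap1 probe set, 1387810_at, 5 of 5 genistein arrays but only 2 of 5 daidzein arrays lay on these sides. Among the 42 groups of 5 arrays (14 probe sets in 3 diets), 0 had an array so far from the others that its gap exceeded 0.71 of the group's range, where chance gives about 1 in 20.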

How the results depend on the processing

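The Ephx1 call with daidzein was the only one among the members, and it was kept in 4 of 21 alternatives. Its adjusted p ranged from 0.00968 to 0.264 over them. Members called with daidzein were 0 without quantile normalization, 0 without the filter, 0 with only the 10 arrays compared and 0 with a replicate block of title numbers, 1 with 16 added to the intensities and 1 with trend and robust, and from 0 to 1 when 1 array was left out. With genistein against control the members called were 0 to 1 when 1 array was left out, and between the isoflavones 0 in every fit run. Over all probe sets daidzein against control gave 3 calls, 6 with trend and robust, and 2 to 8 when 1 array was left out. Genistein against control gave 60 calls, 14 without the filter, 0 with the 10 arrays compared, 17 with the replicate block, 110 with trend and robust, and 5 to 203 when 1 array was left out. Genistein against daidzein gave 21 calls, 3 without the filter, 35 with 16 added, 2 with the 10 arrays compared, 2 with the replicate block, 53 with trend and robust, and 3 to 136 when 1 array was left out. The cause of these differences between fits was not tested. Nqo1 was called in none of its 21 alternatives in any comparison, and its log2 change with daidzein ranged from 1.48 to 2.07. Levels near the filter would depend on any background that was subtracted, which was not given.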
